A study of Mus musculus with 8 samples.

Results

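The genes described here carry glucose into astrocytes, break it down to pyruvate and lactate, move lactate across the cell membrane, and store or release glucose as glycogen. They are 37 genes of the 21878 in the deposited table, chosen by gene symbol for their place in the pathway and all found there. They comprise 5 genes of glucose entry (transporters and hexokinases), 10 of upper and 6 of lower glycolysis with their regulators, 4 of lactate formation and transport, 5 of the pyruvate dehydrogenase gate, 6 of glycogen, and Hif1a. RNA was sequenced from wild-type (WT) astrocytes isolated from newborn (P0) C57BL/6 mouse brain. Cells of 4 libraries had been given a cocktail of IL-1α, TNFα and C1q, used to bring them to a reactive state that carries the complement fragment C3d. Cells of the other 4 libraries had no treatment. The labels give neither dose nor duration of the cocktail, and do not say whether the 4 libraries of a group came from separate cultures or animals, so the p-values speak only of the spread among these libraries, and that spread could be technical.

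Astrocytes take up glucose mainly through the transporter Slc2a1, and hexokinase traps it inside the cell. Phosphofructokinase-1 commits the sugar to glycolysis and is switched on by fructose-2,6-bisphosphate, which the Pfkfb enzymes make and remove. Pyruvate is either reduced to lactate and exported through monocarboxylate transporters, or oxidised in mitochondria by pyruvate dehydrogenase, which the Pdk kinases switch off. Astrocytes hold most of the glycogen of the brain. At several steps the mouse genome offers isoforms that carry out the same reaction with different kinetics or regulation, so the level of each isoform and its share of the step are both given.

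Library totals were 19322585 to 20506911 fragments with the cocktail and 19195898 to 20640490 fragments without treatment. Levels are given in FPKM, the number of sequenced fragments per kilobase of a gene, divided by library depth. Log2 changes are differences of log2(FPKM + 1), a scale on which low genes change less than in FPKM. They were called at an adjusted p under 0.05 in one limma fit over the 11845 genes that reached 1 FPKM in 4 or more libraries. Cocktail libraries 3 and 4 stood apart from cocktail libraries 1 and 2 along the second principal component, which held 2.11% of the variance, against 93.5% along the first component, which separated the groups. Among the members, Slc2a3 was no longer called without cocktail libraries 3 and 4, Eno1 was newly called without libraries 1 and 2, and the other calls held without either pair. The astrocyte markers Slc1a3, Glul, Aqp4, Aldh1l1 and Gfap were at 54.1 FPKM or above in each library, while Slc1a2 was 50.7 to 53.4 FPKM with the cocktail and 8.89 to 10.2 FPKM without. S100b was 0.187 to 0.504 FPKM with the cocktail and 1 to 1.41 FPKM without, and Gjb6 was below 1 FPKM in each library. The summed level of 10 astrocyte markers was 1191 to 1215 FPKM with the cocktail and 1323 to 1473 FPKM without. Of 9 tested astrocyte markers 2 were called higher (Aqp4 and Slc1a2) and 6 lower, and Glul was not called. Gfap was 189 FPKM with the cocktail and 412 FPKM without, and Aldh1l1 was 55.4 FPKM with the cocktail and 91 FPKM without. Gja1 was 32.4 FPKM with the cocktail and 64.4 FPKM without, and Sox9 was 30.0 FPKM with the cocktail and 57.4 FPKM without. Slc1a3 and S100b were the other markers called lower. The summed level of 6 mural cell markers was 123 to 138 FPKM with the cocktail and 557 to 627 FPKM without, and that of 6 fibroblast markers 96.3 to 118 FPKM with the cocktail and 233 to 254 FPKM without. Acta2 made up most of the mural sum (111 FPKM with the cocktail and 581 FPKM without). Pdgfrb was 16.4 FPKM with the cocktail and 20.4 FPKM without, and Des, Kcnj8 and Abcc9 were below 1 FPKM in each library. The fibroblast markers were split, with Ogn (18.6 FPKM with the cocktail and 137 FPKM without), Col1a1 and Col1a2 lower, and Lum (7.69 FPKM with the cocktail and 0.237 FPKM without), Dcn and Pdgfra higher. The sum was 50.8 to 58 FPKM with the cocktail and 133 to 151 FPKM without for 9 neuronal markers, 97.1 to 102 FPKM with the cocktail and 167 to 176 FPKM without for 9 oligodendrocyte lineage markers, and 71.9 to 84.6 FPKM with the cocktail and 126 to 140.1 FPKM without for 5 ependymal markers. Most of the neuronal sum was Stmn2 (38.8 FPKM with the cocktail and 125 FPKM without), and Gad1 was higher (3.21 FPKM with the cocktail and 1.11 FPKM without). Pdgfra, which is also on the oligodendrocyte lineage list, was higher there against lower Olig1, Olig2 and Cspg4. Endothelial markers (7 genes) summed to 1.63 to 2.09 FPKM with the cocktail and 5.07 to 5.54 FPKM without. Of these, Kdr was 0.616 FPKM with the cocktail and 3.99 FPKM without, and the other 6 were below 1 FPKM in each library. In bulk RNA, fewer cells of a type and less RNA per cell cannot be told apart, and the part of these markers in the results below was not tested.

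Of the 37 genes, 35 entered the test, each of them above 1 FPKM in all 8 libraries. The filter left out Slc16a3 and Pygm. With the cocktail 14 genes were called higher, 15 lower and 6 were not called. Over all tested genes 26.6% were called higher and 41.1% lower, so the 42.9% of members called lower was close to the share of all genes, and the 40% called higher was above it. The members were chosen with earlier results of these data known, so this comparison is a description only. Changes of at least 2-fold were called for 4 members that rose (Slc2a6, Hif1a, Slc16a1 and Pfkfb3) and 3 that fell (Aldoc, Pfkp and Ugp2), against 4.08% of all tested genes rising and 4.56% falling by that much. The 4 cocktail and the 4 untreated values did not overlap in 30 of 35 tested members, and in 62.7% of all tested genes. The median log2 change was 0.05 over the 35 members and -0.05 over all tested genes. When libraries were rescaled by median ratios, 18 members were called higher and 14 lower, and 33.3% of all genes were called higher and 35.6% lower.

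**Figure D1:**
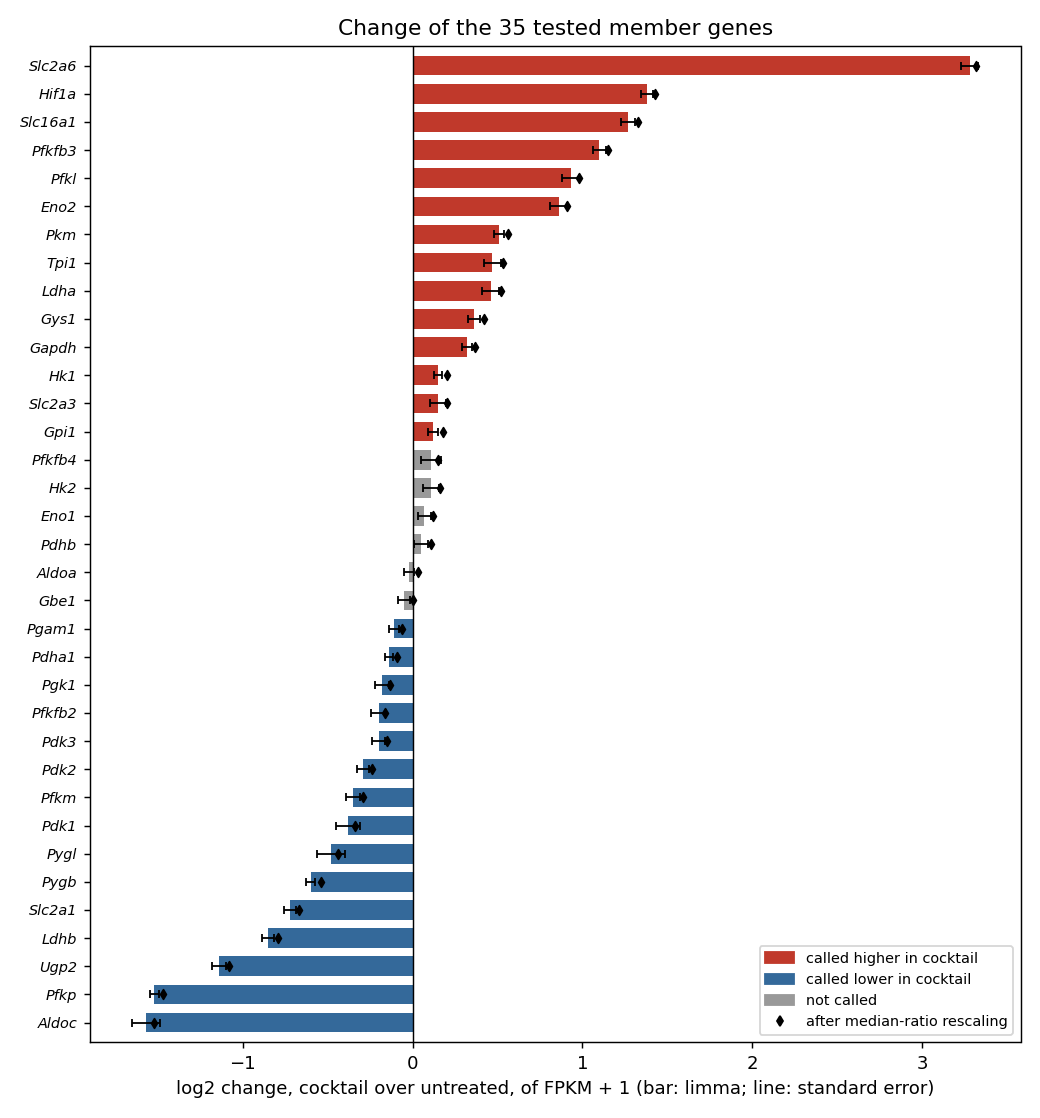
Log2 change of each tested member on the log2(FPKM + 1) scale, cocktail minus untreated, as bars with lines for the standard error, ordered by size. Colours mark genes called higher, called lower or not called in limma, and diamonds give the change after median-ratio rescaling. Slc2a6 stands far to the right at 3.28, and Pfkp and Aldoc lie farthest to the left at -1.52 and -1.57.

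Among the glucose transporters Slc2a6 rose and Slc2a1 fell, and their order was turned round. Slc2a6, a glucose transporter (GLUT6) held largely on membranes inside the cell, was at 45.7, 48.5, 43.7 and 44.9 FPKM in the cocktail libraries and at 3.93, 3.75, 4.17 and 3.44 FPKM in the untreated libraries. All cocktail libraries were far above all untreated ones. The mean was 45.7 ± 2.03 FPKM with the cocktail and 3.82 ± 0.305 FPKM without (SD, n = 4 each), an 11.9-fold rise (log2 change 3.28, SE 0.050, limma adjusted p = 2.8e-13). Slc2a1 (GLUT1), the transporter that astrocytes use at their surface, was at 23.7, 22.2, 23.3 and 23.8 FPKM with the cocktail, against 40.3, 37.9, 37.9 and 39.8 FPKM without. Its groups lay far apart, with a 1.68-fold lower mean after the cocktail (log2 change -0.72, SE 0.034, limma adjusted p = 2.6e-09). Slc2a3 (GLUT3), best known as the neuronal transporter, was 5.7 to 6.52 FPKM with the cocktail and 5.16 to 5.62 FPKM without, a small rise (log2 change 0.15, adjusted p = 0.012) that was not called when cocktail libraries 3 and 4 were left out (adjusted p = 0.11).

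As a share of the FPKM summed over these 3 transporters, Slc2a1 made up 31% ± 1.39 with the cocktail and 80.9% ± 0.972 without (SD, n = 4 each), and Slc2a6 made up 60.9% ± 1.66 with the cocktail and 7.95% ± 0.698 without. The share of 1 preset isoform was tested in each of 10 steps with an exact permutation test, two-sided. It ran over the 70 ways of assigning 4 of 8 libraries and cannot give a p below 0.0286. The p-values were adjusted over the 10 steps. Steps at the smallest p share an adjusted p of 0.0476, which is set by how many steps reach it and does not rank them. The members were chosen with earlier results of these data known, so these p-values are a description only. A share within a library does not depend on how that library was scaled. The Slc2a1 share differed by -49.9 percentage points (exact p = 0.0286, adjusted p = 0.0476). Because Slc2a6 is not mainly a surface transporter, the share was also taken without it, a choice made after the values were seen. Slc2a1 was then 79.2% ± 0.953 of Slc2a1 plus Slc2a3 with the cocktail and 87.9% ± 0.666 without (SD, n = 4 each, exact p = 0.0286).

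At hexokinase, which phosphorylates glucose, both isoforms were slightly higher in their means and no shift of share was found. Hk1, the main hexokinase of brain, was 39.3 to 39.9 FPKM with the cocktail and 34.7 to 36.3 FPKM without, a small rise (log2 change 0.15, adjusted p = 0.00035). Hk2, the inducible hexokinase, was at 7.11, 6.55, 6.94 and 6.54 FPKM with the cocktail, against 6.39, 5.75, 6.43 and 6.27 FPKM without. Its groups did not overlap but it was not called (log2 change 0.11, SE 0.046, adjusted p = 0.0503), so it lay at the threshold. It was called when cocktail library 2 or 4 was left out (adjusted p = 0.0481 and 0.0472), with a pseudocount of 0.1 (adjusted p = 0.05 after rounding), after median-ratio rescaling (adjusted p = 0.0099), with voom on fragments (adjusted p = 0.033) and with the replicate block (adjusted p = 0.0466). Over all 15 alternatives its adjusted p was 0.0099 to 0.15. Hk2 made up 14.6% ± 0.502 of the step with the cocktail and 14.8% ± 0.772 without (SD, n = 4 each), a difference of -0.192 percentage points (exact p = 0.714, adjusted p = 0.771). Gpi1, which turns glucose-6-phosphate into fructose-6-phosphate, was called slightly higher (log2 change 0.12, adjusted p = 0.0039).

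At phosphofructokinase-1 the order of the 3 isoforms changed, with Pfkp and Pfkm lower and Pfkl higher. Pfkp, the platelet-type subunit, was at 25.1, 25.3, 25.4 and 26 FPKM with the cocktail and at 74.1, 77.1, 74.4 and 73.9 FPKM without. Within each group its libraries lay within a few FPKM of each other, and the cocktail mean of 25.4 ± 0.421 FPKM was 2.94-fold lower than the untreated mean of 74.9 ± 1.49 FPKM (SD, n = 4 each, log2 change -1.52, SE 0.027, limma adjusted p = 7.5e-13). Pfkl, the liver-type subunit, rose, at 41.5, 40.7, 43.9 and 48.8 FPKM with the cocktail and 23.1, 21.4, 22.6 and 22.8 FPKM without. Cocktail library 4 was the highest, and the groups were well separated (1.94-fold, log2 change 0.93, SE 0.051, limma adjusted p = 1.2e-08). Pfkm, the muscle-type subunit, fell more modestly, to 49.2 to 53.9 FPKM with the cocktail, against 62.8 to 69.8 FPKM without (log2 change -0.35, adjusted p = 1.5e-05).

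In untreated cells Pfkp was thus the most abundant of these isoforms and Pfkl the least, and in cocktail-treated cells Pfkm led and Pfkp was last. Pfkp made up 21% ± 0.193 of the step with the cocktail and 45.8% ± 0.981 without (SD, n = 4 each), a difference of -24.8 percentage points (exact p = 0.0286, adjusted p = 0.0476). Pfkl made up 36.1% ± 2.42 with the cocktail and 13.8% ± 0.642 without, and Pfkm 42.8% ± 2.43 with the cocktail and 40.4% ± 1.17 without. The sum of the 3 isoforms was 121 ± 2.12 FPKM with the cocktail and 163 ± 4.08 FPKM without.

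The enzymes that set the level of its activator moved as well. Pfkfb3, the Pfkfb isoform with the strongest kinase activity, was at 57.2, 57.4, 61.3 and 62.6 FPKM with the cocktail and 27.2, 27.9, 28.4 and 25.7 FPKM without. The groups were far apart, and the mean rose 2.19-fold (log2 change 1.10, SE 0.040, limma adjusted p = 2.9e-10). Pfkfb2 fell slightly (3.74 to 4.07 FPKM with the cocktail, 4.47 to 4.85 FPKM without, log2 change -0.20, adjusted p = 0.0019), and Pfkfb4 was near 2 FPKM in both groups and was not called (log2 change 0.11, adjusted p = 0.12). Pfkfb3 made up 90.7% ± 0.454 of the step with the cocktail and 80.5% ± 0.671 without (SD, n = 4 each), 10.2 percentage points more (exact p = 0.0286, adjusted p = 0.0476).

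**Figure D2:**
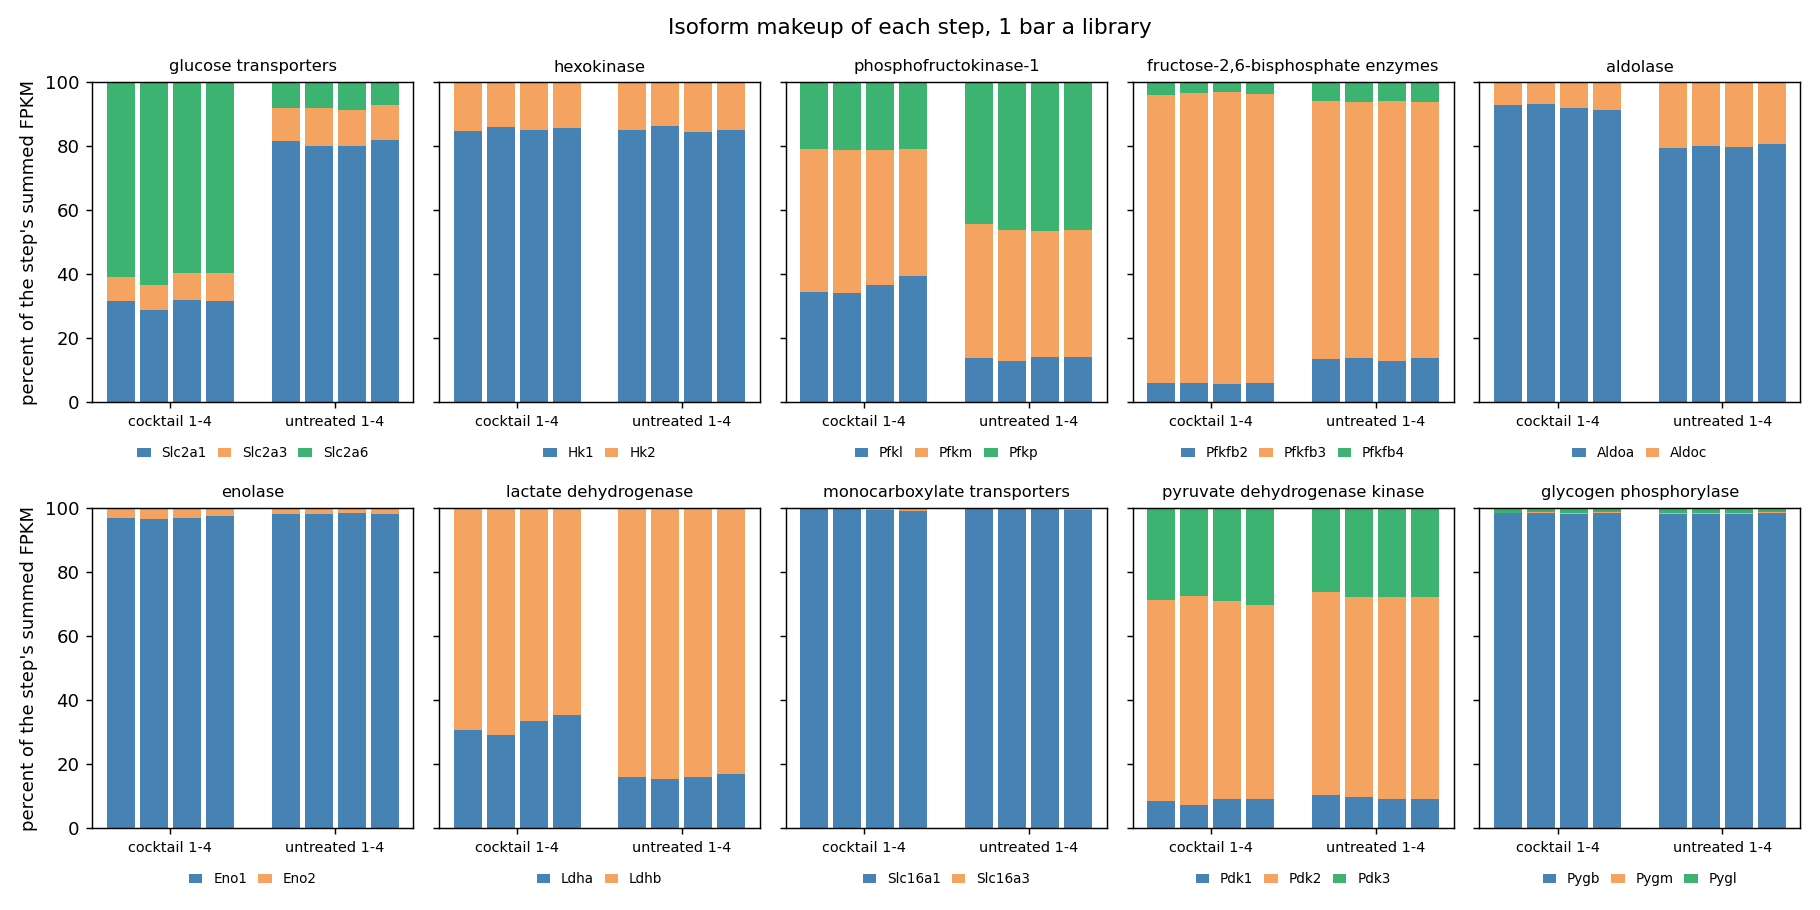
Share of each isoform in the summed FPKM of its step, in percent, for every library, with the cocktail libraries left of the untreated ones in each of the 10 steps. The bars of the glucose transporter, phosphofructokinase-1 and lactate dehydrogenase steps differ between the groups, while those of hexokinase and glycogen phosphorylase look alike.

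At aldolase, which splits the sugar, the brain-type isoform fell and the general isoform was not called. Aldoc, the isoform that marks astrocytes in the brain, was at 22.3, 22.1, 26.9 and 29.9 FPKM with the cocktail and 80.2, 78, 74.8 and 73.7 FPKM without. Cocktail libraries 3 and 4 were higher than libraries 1 and 2, and all were far below the untreated libraries (3.03-fold lower mean, log2 change -1.57, SE 0.081, limma adjusted p = 6.2e-09). Of 9 tested astrocyte markers 6 were called lower and 2 higher, and the part of these markers in the Aldoc values was not tested. Aldoa, the general isoform, was 295 to 311 FPKM with the cocktail and 296 to 313 FPKM without and was not called (log2 change -0.02, adjusted p = 0.47); its estimate was 0.03 after median-ratio rescaling. Aldoc made up 7.72% ± 0.898 of the step with the cocktail and 20% ± 0.423 without (SD, n = 4 each), a difference of -12.3 percentage points (exact p = 0.0286, adjusted p = 0.0476). The difference was -11.5 points without cocktail libraries 1 and 2 and -13 points without cocktail libraries 3 and 4.

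In the middle and lower part of the pathway Tpi1, Gapdh, Eno2 and Pkm rose, and Pgk1 and Pgam1 fell. Tpi1, which interconverts the 2 triose phosphates, was 208 to 248 FPKM with the cocktail and 156 to 163 FPKM without and rose (log2 change 0.47, adjusted p = 4.6e-06). Gapdh rose as well (38.2 to 40.2 FPKM with the cocktail, 29.7 to 31.8 FPKM without, log2 change 0.32, adjusted p = 1.6e-06), but its level was far below that of its neighbours Tpi1 and Pgk1, and the mouse genome holds many near-identical copies of Gapdh, so its level is uncertain. Pgk1 and Pgam1, the next enzymes, were called lower by small amounts (log2 change -0.18, adjusted p = 0.0017, and log2 change -0.11, adjusted p = 0.0047), and Pgam1 was not called after median-ratio rescaling (adjusted p = 0.094). Copies of Ldha, Eno1 and Pgam1 are also known, so reads could be shared with them.

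Enolase kept its general isoform at 507 to 563 FPKM with the cocktail and 493 to 522 FPKM without. Eno1 was not called (log2 change 0.07, adjusted p = 0.12), though it was without cocktail library 1 (adjusted p = 0.0494). Eno2, the isoform used as a neuronal marker, was at 17, 17.4, 17.3 and 15.3 FPKM with the cocktail and 9.03, 8.77, 8.19 and 9.18 FPKM without, a 1.90-fold rise with no overlap (log2 change 0.86, SE 0.049, limma adjusted p = 1.6e-08). Its share of the step stayed small at 3.06% ± 0.291 with the cocktail and 1.7% ± 0.0873 without (SD, n = 4 each, exact p = 0.0286, adjusted p = 0.0476). Of 9 neuronal markers 4 were tested: Gad1 was higher (log2 change 0.99, adjusted p = 6.7e-08), Stmn2 and Syp were lower (log2 change -1.66, adjusted p = 8.2e-11, and -0.54, adjusted p = 6.7e-06) and Tubb3 was not called (adjusted p = 0.072). Rbfox3, Snap25, Slc17a7 and Dcx were below 1 FPKM in every library, and the part of these markers in the Eno2 values was not tested. Pkm, the pyruvate kinase gene, was at 557, 548, 563 and 587 FPKM with the cocktail and 397, 395, 386 and 406 FPKM without (1.42-fold, log2 change 0.51, SE 0.030, limma adjusted p = 1.9e-08).

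**Figure D3:**
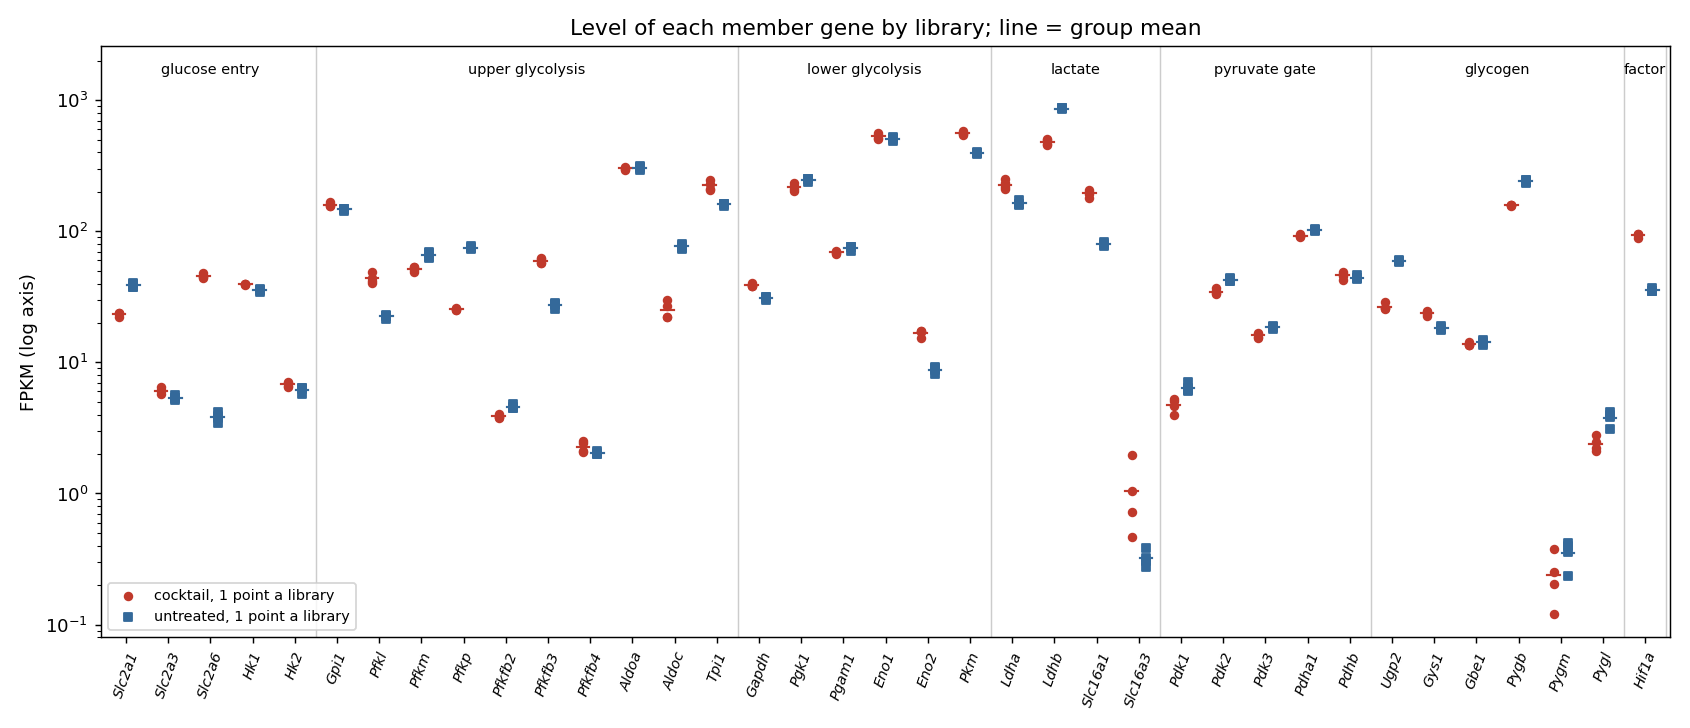
FPKM of the members in each of the 4 cocktail and 4 untreated libraries, on a log axis, cocktail left of untreated, with a short line at the group mean. Pfkp, Aldoc and Ldhb sit lower with the cocktail, and Slc2a6, Hif1a and Slc16a1 sit higher.

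At the exit to lactate the subunits of lactate dehydrogenase moved in opposite directions. Ldhb, the subunit of the heart-type enzyme, which is the main form in untreated cells here, was at 495, 508, 462 and 460 FPKM with the cocktail and at 867, 873, 868 and 855 FPKM without. The untreated libraries were nearly level, the cocktail libraries 3 and 4 were lowest, and the mean was 481 ± 23.9 FPKM with the cocktail and 866 ± 7.57 FPKM without (SD, n = 4 each, 1.80-fold lower, log2 change -0.85, SE 0.035, limma adjusted p = 9.3e-10). Ldha, the muscle-type subunit, was at 217, 209, 234 and 249 FPKM with the cocktail and 163, 159, 163 and 173 FPKM without (log2 change 0.46, SE 0.050, limma adjusted p = 5.2e-06). Ldha made up 30.5%, 29.1%, 33.6% and 35.2% of the step with the cocktail, against 15.8%, 15.4%, 15.8% and 16.8% without. The Ldhb share differed by -16.1 percentage points (exact p = 0.0286, adjusted p = 0.0476), and the step as a whole was 709 ± 8.98 FPKM with the cocktail and 1030.2 ± 1.71 FPKM without. Without cocktail libraries 1 and 2 the Ldhb share differed by -18.4 points, and without cocktail libraries 3 and 4 by -13.9 points.

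Slc16a1 (MCT1), a lactate transporter that works in both directions, was at 194, 179, 199 and 206 FPKM with the cocktail and 83.3, 80.1, 77 and 78.8 FPKM without. The lowest cocktail library was more than 2 times the highest untreated one (2.44-fold, log2 change 1.27, SE 0.042, limma adjusted p = 1.3e-10). Bsg, the chaperone that takes Slc16a1 to the membrane, fell slightly (258 ± 4.61 FPKM with the cocktail and 276 ± 4.45 FPKM without, SD, n = 4 each, log2 change -0.10, adjusted p = 0.0047), and was not called after median-ratio rescaling (log2 change -0.04, adjusted p = 0.14). Slc16a3 (MCT4), the transporter tied to lactate export in glycolytic cells, was at 0.726, 0.465, 1.04 and 1.96 FPKM with the cocktail and 0.275, 0.307, 0.321 and 0.381 FPKM without, resting on 32 to 142 fragments with the cocktail and 19 to 28 without. It did not enter the main test, and in a fit without the filter it was called higher (log2 change 0.58, SE 0.183, adjusted p = 0.024). As a share of Slc16a1 plus Slc16a3 it made up 0.524% ± 0.299 with the cocktail and 0.401% ± 0.0636 without (SD, n = 4 each, exact p = 0.629, adjusted p = 0.771). Its cocktail values were 2.52 times as high in libraries 3 and 4 as in libraries 1 and 2. Microglia markers moved with those libraries: their 18 genes summed to 48.5, 48.1, 81.6 and 106 FPKM in cocktail libraries 1 to 4 and to 53.5, 54.7, 53.9 and 52.8 FPKM in the untreated libraries, and of 11 tested 5 were higher and 1 lower, with P2ry12 and Tmem119 below 1 FPKM in all. The part of these markers in the Slc16a3 values was not tested.

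At the gate to mitochondria 4 of 5 members fell and none rose, where 41.1% of all tested genes were called lower and 26.6% higher. Pdha1, a subunit of pyruvate dehydrogenase, and the kinases Pdk1, Pdk2 and Pdk3, which switch it off, were all called lower with the cocktail, by log2 changes of -0.14, -0.38, -0.29 and -0.20 (adjusted p = 0.00029, 0.00042, 1.6e-05 and 0.00039). Pdk1 was 3.99 to 5.23 FPKM with the cocktail and 6.1 to 7.03 FPKM without, and Pdk2 was 33.2 to 36.8 FPKM with the cocktail and 41.6 to 43.9 FPKM without. Pdk3 was 15.4 to 16.7 FPKM with the cocktail and 18.1 to 19 FPKM without, and Pdha1 90.6 to 95.1 FPKM with the cocktail and 101 to 104 FPKM without. Pdhb, the other subunit, was 42.6 to 49.1 FPKM with the cocktail and 43.1 to 46.2 FPKM without, overlapped between groups, and was not called (adjusted p = 0.29). The Pdk1 share of its step was 8.51% ± 0.999 with the cocktail and 9.5% ± 0.507 without (SD, n = 4 each, exact p = 0.143, adjusted p = 0.204). Outside the member list, Pdk4, a kinase induced by fasting, was 5.87 ± 0.24 FPKM with the cocktail and 11.6 ± 0.475 FPKM without (SD, n = 4 each, log2 change -0.87, adjusted p = 3.8e-09), and Pdhx, which anchors a subunit of the complex, was 20.7 ± 0.574 FPKM with the cocktail and 13.2 ± 0.446 FPKM without (log2 change 0.61, adjusted p = 1.6e-08).

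Of 5 tested glycogen members 3 fell (Ugp2, Pygb and Pygl), Gys1 rose and Gbe1 was not called. With 41.1% of all tested genes called lower and 26.6% higher, a count over so few genes is no result about glycogen genes as a group. Ugp2, which makes the UDP-glucose that glycogen is built from, was at 25.5, 25.8, 29 and 25.8 FPKM with the cocktail and at 59.9, 59.1, 60 and 58.7 FPKM without (2.24-fold lower, log2 change -1.14, SE 0.039, limma adjusted p = 1.7e-10). Cocktail library 3 was the highest of its group and still far below every untreated library. Pygb, the brain-type phosphorylase that breaks glycogen down, was at 159, 158, 160 and 157 FPKM with the cocktail and 247, 245, 234 and 237 FPKM without (1.52-fold lower, log2 change -0.60, SE 0.026, limma adjusted p = 1.2e-09). Synthesis and breakdown genes thus both held members that fell. Pygl, the liver-type phosphorylase, was also lower, at 2.11 to 2.77 FPKM with the cocktail and 3.09 to 4.15 FPKM without (log2 change -0.48, adjusted p = 0.00021). Gys1, the glycogen synthase, was 22.5 to 24.6 FPKM with the cocktail and 17.6 to 18.9 FPKM without (log2 change 0.36, adjusted p = 2.2e-06), and Gbe1, the branching enzyme, was 13.5 to 14.2 FPKM with the cocktail and 13.6 to 14.9 FPKM without (adjusted p = 0.27). Pygm, the muscle-type phosphorylase, had 7 to 22 fragments with the cocktail and 14 to 24 without. It was below 1 FPKM in each library and so did not enter the test. Pygb made up 98.4% of the phosphorylase sum with the cocktail and 98.3% without, and the Pygl share was 1.49% with the cocktail and 1.53% without (exact p = 0.771, adjusted p = 0.771).

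Hif1a, the subunit of hypoxia-inducible factor that is degraded when oxygen is plentiful and that drives many glycolytic genes, was at 94.6, 88.8, 95.3 and 96 FPKM with the cocktail and 34.8, 34.9, 37.2 and 34.9 FPKM without. No cocktail library came near an untreated one (2.64-fold, log2 change 1.38, SE 0.033, limma adjusted p = 1e-11). The mRNA level says nothing of the protein, which is regulated mainly by its stability. Of 8 other oxygen-sensing genes tested, 2 were higher, 2 lower and 4 not called (26.6% of all tested genes were higher and 41.1% lower). Epas1 (HIF-2α) rose to 72.6 ± 3.53 FPKM with the cocktail, against 35.9 ± 0.786 FPKM without (SD, n = 4 each, log2 change 0.99, adjusted p = 2.5e-10), and Vhl rose slightly (log2 change 0.14, adjusted p = 0.014). Arnt2, a binding partner, was 59.1 FPKM with the cocktail and 101 FPKM without (log2 change -0.77, adjusted p = 6.9e-10), and Egln1, a prolyl hydroxylase that marks Hif1a for degradation, was 18.8 FPKM with the cocktail and 31.8 FPKM without (log2 change -0.73, adjusted p = 8.6e-10). Arnt, Egln2, Egln3 and Hif1an were not called (adjusted p = 0.66, 0.8, 0.066 and 0.48), and Hif3a was below 1 FPKM in every library.

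Promoter sequence was read for the members, since many glycolytic genes carry binding motifs of hypoxia-inducible factor. The 250 bases before a start that RefSeq lists for the gene (build GRCm38.p6, the assembly that mm10 names) are shown for 6 of the genes that moved in these data: the lactate transporter, both lactate dehydrogenase genes, Hif1a, Slc2a6 and Pfkp. Each is written 5′ to 3′ on the strand of the gene, and capitals mark ACGTG, the core of the hypoxia response element, on either strand; the E-box CACGTG holds that core on both strands and so counts as 2 matches.
Slc16a1, chr3:104638414-104638663, plus strand: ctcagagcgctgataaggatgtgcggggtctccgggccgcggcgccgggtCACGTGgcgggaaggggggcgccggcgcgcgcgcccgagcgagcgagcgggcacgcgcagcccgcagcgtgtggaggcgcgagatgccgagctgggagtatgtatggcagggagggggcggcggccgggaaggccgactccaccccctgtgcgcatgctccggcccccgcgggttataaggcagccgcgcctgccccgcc
Hif1a, chr12:73907617-73907866, plus strand: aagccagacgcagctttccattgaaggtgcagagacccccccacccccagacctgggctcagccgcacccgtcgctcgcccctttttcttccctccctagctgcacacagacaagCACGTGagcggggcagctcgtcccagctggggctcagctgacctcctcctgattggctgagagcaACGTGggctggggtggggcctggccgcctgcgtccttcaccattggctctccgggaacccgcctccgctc
Ldha, chr7:46845554-46845803, plus strand: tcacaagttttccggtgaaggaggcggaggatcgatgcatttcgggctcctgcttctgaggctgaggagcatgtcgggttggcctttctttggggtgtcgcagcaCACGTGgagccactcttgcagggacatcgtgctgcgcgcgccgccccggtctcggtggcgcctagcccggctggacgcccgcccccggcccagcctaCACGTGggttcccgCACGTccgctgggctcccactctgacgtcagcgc
Ldhb, chr6:142507958-142508207, minus strand: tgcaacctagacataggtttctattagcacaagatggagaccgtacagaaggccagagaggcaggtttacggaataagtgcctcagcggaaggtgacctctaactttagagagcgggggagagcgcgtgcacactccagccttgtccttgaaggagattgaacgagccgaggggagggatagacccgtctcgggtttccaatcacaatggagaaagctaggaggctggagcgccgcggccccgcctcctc
Slc2a6, chr2:27027999-27028248, minus strand: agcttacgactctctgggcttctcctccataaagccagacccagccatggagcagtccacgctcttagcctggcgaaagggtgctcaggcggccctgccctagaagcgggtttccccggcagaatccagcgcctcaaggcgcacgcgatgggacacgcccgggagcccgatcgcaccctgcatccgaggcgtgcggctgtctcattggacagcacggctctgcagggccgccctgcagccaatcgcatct
Pfkp, chr13:6648772-6649021, minus strand: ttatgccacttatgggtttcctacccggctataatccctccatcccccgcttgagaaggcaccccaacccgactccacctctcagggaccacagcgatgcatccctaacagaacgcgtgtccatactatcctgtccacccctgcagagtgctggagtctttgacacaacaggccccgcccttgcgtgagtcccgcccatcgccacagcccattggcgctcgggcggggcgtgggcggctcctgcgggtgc
The Slc16a1 window holds 1 CACGTG, the Hif1a window holds 3 matches, the first of the 2 Ldha windows holds 5, and the Ldhb, Slc2a6 and Pfkp windows hold none. Of 53 windows belonging to 36 members, 24 hold ACGTG, while 16.6% of all 32851 such RefSeq windows do. Windows of a gene can overlap, as those of Aldoa do, so the same match can be counted in several windows. Counted by window, ACGTG was present in 6 of 17 windows of members called higher, 12 of 24 of members called lower, and 6 of 12 of members not called or not tested. These are matches of letters and not sites, and they say nothing of the factors.

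The routes around glycolysis were read from lists of other pathway genes. Of 95 listed, 77 were tested, 25 called higher, 31 lower and 21 not called, so the part called lower was close to the 41.1% of all tested genes. For genes called higher, the share over all tested genes was 26.6%, and the counts of each list are to be read against these shares. Among these, isoforms outside the members had 1 of 11 tested higher and 6 lower, genes of pyruvate entry 3 of 9 higher and 5 lower, and genes of shuttles and gluconeogenesis 3 of 11 higher and 2 lower. In the pentose phosphate branch, which makes NADPH and ribose, 6 of 8 tested genes were higher and 1 lower, including Taldo1 (transaldolase), at 164 ± 2.43 FPKM with the cocktail and 101 ± 2.56 FPKM without (SD, n = 4 each, log2 change 0.70, adjusted p = 4e-10), and Pgd, at 101 ± 2.36 FPKM with the cocktail and 65.3 ± 0.496 FPKM without (log2 change 0.62, adjusted p = 8.3e-10). Of 18 tested glycogen genes outside the members 12 were lower and 3 higher. Phkg1, a catalytic subunit of phosphorylase kinase, was 2.71 ± 0.502 FPKM with the cocktail and 7.94 ± 0.719 FPKM without (SD, n = 4 each, log2 change -1.27, adjusted p = 1.3e-07), and Ppp1r3c, which targets a phosphatase to glycogen, was 3.7 ± 0.312 FPKM with the cocktail and 8.99 ± 0.566 FPKM without (log2 change -1.09, adjusted p = 8.6e-09). Epm2a (laforin, a glycogen phosphatase) was also lower (log2 change -0.73, adjusted p = 0.0012), as was Ppp1r3b, a relative of Ppp1r3c (log2 change -0.55, adjusted p = 0.00023). Ppp1r3d, another relative added after its values were seen, was higher (log2 change 0.55, adjusted p = 0.00017). Gpd1l and Gpd2, of the glycerol-3-phosphate route, were lower (log2 change -1.07, adjusted p = 8.5e-10, and -0.96, adjusted p = 3.3e-10), while Got1, of the malate-aspartate shuttle, was slightly higher (log2 change 0.15, adjusted p = 0.0078).

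**Figure D4:**
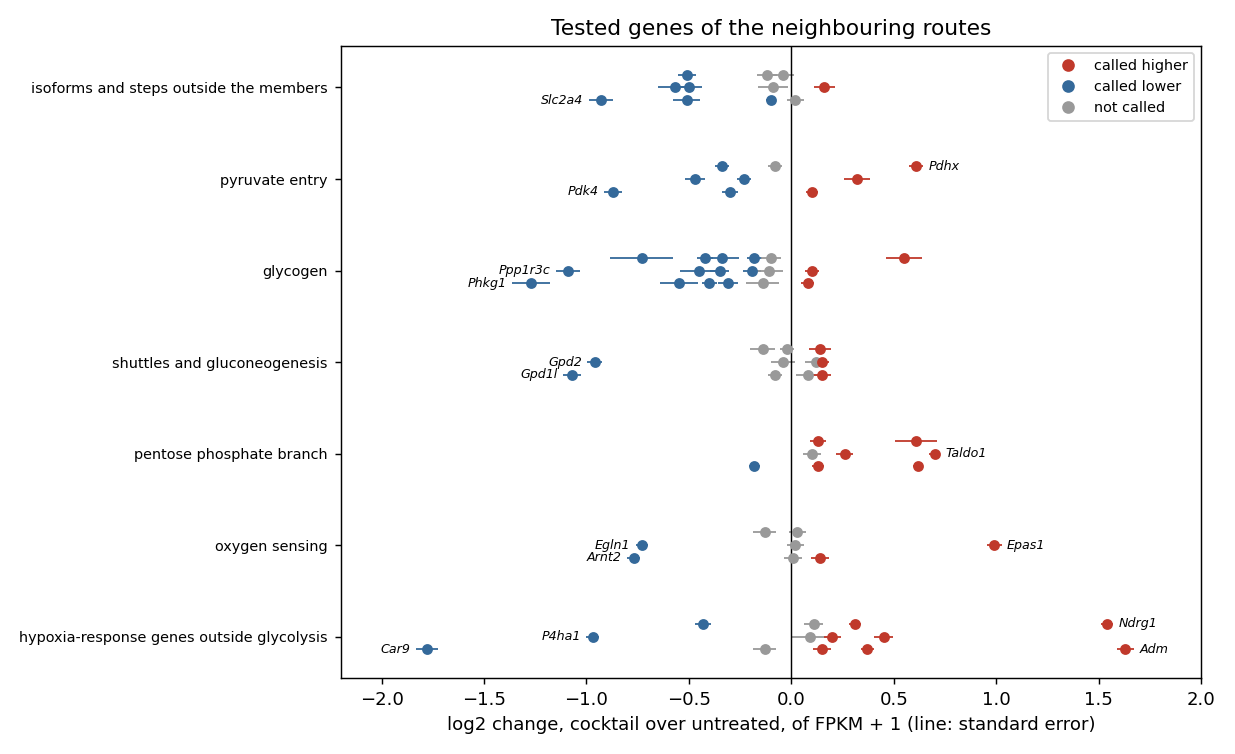
Log2 change of other pathway genes by list on the log2(FPKM + 1) scale, cocktail minus untreated, with 1 point a gene, a line for its standard error and colours for genes called higher, called lower or not called. Points of the pentose phosphate branch lie mostly right of 0 and those of the glycogen list mostly left of it.

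Genes known to respond to low oxygen moved in both directions. Of 13 tested, 7 were higher, 3 lower and 3 not called, with a median log2 change of 0.15. Over all tested genes the shares were 26.6% higher and 41.1% lower. Adm (adrenomedullin) rose 3.24-fold (42 ± 1.43 FPKM with the cocktail, 12.9 ± 0.728 FPKM without, SD, n = 4 each, adjusted p = 1.6e-11) and Ndrg1 2.92-fold (344 ± 13.9 FPKM with the cocktail, 118 ± 1.75 FPKM without, adjusted p = 2.3e-12). Car9 (a carbonic anhydrase) fell 4.88-fold (1.68 ± 0.133 FPKM with the cocktail, 8.23 ± 0.454 FPKM without, adjusted p = 6.1e-11), and P4ha1, a collagen prolyl hydroxylase, was 28.8 FPKM with the cocktail and 57.6 FPKM without (log2 change -0.97, adjusted p = 1.1e-10). Its relative P4ha2 was higher, at 7.89 FPKM with the cocktail and 5.52 FPKM without (log2 change 0.45, adjusted p = 2.9e-06). Of the glucose carriers outside the member list, Slc2a4 (GLUT4) was 0.839 FPKM with the cocktail and 2.5 FPKM without (log2 change -0.93, adjusted p = 4.4e-08), and Slc2a12 was 0.788 FPKM with the cocktail and 1.65 FPKM without (log2 change -0.57, adjusted p = 5.7e-05), while Slc2a8 and Slc2a10, added after their values were seen, were at 7.04 FPKM and 4.66 FPKM with the cocktail and 7.28 FPKM and 4.58 FPKM without and were not called (adjusted p = 0.51 and 0.67).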

How the data were processed

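RNA of 4 cocktail-treated and 4 untreated libraries of P0 mouse astrocytes was isolated with TRIzol and prepared with a stranded mRNA kit, per the labels' protocols. The authors deposited 1 table of FPKM values for 21878 genes. The submitters' processing notes name mm10 and DESeq; the aligner is not given in the sources used here. Groups and replicate numbers came from the sample titles, since the treatment labels of 3 cocktail libraries spell C1q with other digits.

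limma (version 3.58.1, R 4.3.3) with a mean-variance trend was fitted to log2(FPKM + 1) for the 11845 genes that reached 1 FPKM in 4 or more of 8 libraries, two-sided, with Benjamini-Hochberg adjustment over all of them and calls under 0.05. Fitting was tested on simulated data. FPKM ratios within a gene were whole-number ratios to a relative tolerance of 1e-11, which gave the fragments behind 16557 genes and the library totals. Fragment totals limit the precision of the low members. Replicates differed by more than sampling noise, with a chi-square per gene of 2.11 or more in every pair of a group, so none was counted as a duplicate. Isoform shares were compared with exact permutation tests, two-sided, over 70 assignments, adjusted over 10 steps. Alternatives were a pseudocount of 0.1, no filter, median-ratio rescaling, fragment shares, voom on recovered fragments, a replicate block, and leaving out single libraries or a pair of cocktail libraries. Named genes were all members, and of the other lists the called genes with a log2 change of at least 1 and a mean of at least 5 FPKM, up to 2 more per list, Bsg and the oxygen-sensing genes. Slc2a8, Slc2a10, Hk3 and Ppp1r3d were added after their values were seen. Promoter windows came from RefSeq sequence, in which 36 of 37 members had one. The members and lists were chosen with earlier results of these data known.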

Additional observations from a re-analysis of the deposited data

Results flagged for a closer look

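In 5 of 94 groups of 4 values (members' FPKM and isoform shares), 1 library lay far from the other 3 by Dixon's test, which chance does in about 1 group in 20. Pfkp was 77.1 FPKM in untreated library 2, above the other untreated libraries. Tpi1 was 156 FPKM in untreated library 3, below the others of its group. Ugp2 was 29 FPKM in cocktail library 3, above the other cocktail libraries. Hif1a was 37.2 FPKM in untreated library 3, above the other untreated libraries. The Slc2a1 share of its step was 28.9% in cocktail library 2, below the other cocktail libraries. Each of these values lay on its own group's side of the other group.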

How the results depend on the processing

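Across 15 alternatives, 27 of 29 called members kept their call. The exceptions were Slc2a3 (log2 change 0.11 without cocktail libraries 3 and 4, adjusted p = 0.11) and Pgam1 (-0.06 after median-ratio rescaling, adjusted p = 0.094). Members called higher ranged from 13 to 18 and lower from 14 to 15. Aldoa, not called, turned to 0.03 after median-ratio rescaling and to 0.00 without cocktail libraries 1 and 2, and Gbe1, not called, to 0.00 after that rescaling; the cause was not tested. Rescaling moved the median log2 change of all genes by 0.048 and the share of calls that were higher to 48.4%, against 39.3%. It also called Hk2 (adjusted p = 0.0099), Pfkfb4 (adjusted p = 0.044), Eno1 (adjusted p = 0.0086) and Pdhb (adjusted p = 0.045).

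Shares that reversed were those with small differences and no call. Leaving out 1 library each time, the Hk2 share differed by -0.534 to 0.0888 percentage points, the Slc16a3 share by -0.0178 to 0.21 and the Pygl share by -0.128 to 0.00953. The Slc16a3 share differed by -0.0857 without cocktail libraries 3 and 4, and the Pygl share by 0.0149 without libraries 1 and 2. The Aldoc share differed by -11.5 without cocktail libraries 1 and 2 and by -13 without libraries 3 and 4, and the Ldhb share by -18.4 and -13.9. With the replicate block 15 members were called higher and 15 lower. Same-numbered libraries correlated by -0.04 to 0.09 in their deviations, and 2 of 4 numbers correlated best with their own. The labels do not say whether the numbers pair the libraries, and these values do not settle it. With the block no share can pass, since its smallest exact p is 0.125. Depth limits Slc16a3 and Pygm, which rest on few fragments.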

Other observations

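Between the cocktail libraries, the mean of libraries 3 and 4 was above that of libraries 1 and 2 by 1.28 times for Aldoc, 1.19 times for Pdk1, 1.15 times for Tpi1 and 1.13 times each for Pfkl and Ldha, while Ldhb was at 0.92 times and Pfkm at 0.93 times. Hk3, a hexokinase outside the members that was chosen after its values were seen, was at 0.404, 0.45, 0.946 and 2.13 FPKM in cocktail libraries 1 to 4 and at 0.226 to 0.519 FPKM in the untreated libraries, and it did not enter the test.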
